A study of Mus musculus with 9 samples.

Results

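A mouse embryonic stem cell line titled NanogKO:Esrrb:Nanog (44JN, here the Esrrb+Nanog line) was compared with a line titled NanogKO:Esrrb (44J, here the Esrrb line) over all autosomal genes. The comparison asks what differs where Nanog is present in cells that already hold a high level of Esrrb. Libraries were chosen by sample title, 3 per line, which makes 6 of the 9 libraries of the series. Of 52636 gene IDs in the count table, 48182 were autosomal, and 15585 of these had enough reads to be tested, out of 16198 tested genes on all chromosomes.

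All cells were embryonic stem cells kept in serum with leukaemia inhibitory factor (LIF), without further treatment, and were flow sorted as PECAM positive and PDGFRA negative before total RNA was taken and depleted of ribosomal RNA. The remaining 3 libraries came from the line titled NanogKO (44C6, genotype N{delta}, here the Nanog-null line), and they serve as a reference level and help to estimate the spread. The labels give the genotype N{delta}:cE:iN to both the Esrrb line and the Esrrb+Nanog line, so only the titles separate them, and how Nanog was restored is not given in the sources used here. Each group is 1 line, so Nanog and the line cannot be told apart. The labels do not say that replicates were separate cultures, and adjusted p-values therefore measure the spread between these libraries.

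NANOG is a homeodomain transcription factor and ESRRB an orphan nuclear receptor, and both hold embryonic stem cells in the naive state, the state of the early epiblast. They bind many of the same enhancers together with OCT4 and SOX2, Esrrb is itself a known target of NANOG, and added Esrrb is known to sustain self-renewal of cells that lack Nanog. Fibroblast growth factor (FGF) and Nodal signals move cells on to the formative epiblast, which expresses Otx2 and the de novo DNA methyltransferases, whereas Gata6 marks the alternative fate of primitive endoderm.

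Library totals of the 6 libraries ran from 24398291 to 32496267 counts. The second principal component of all 9 libraries, with 11.7% of the variance, held the Esrrb line on one side and the Esrrb+Nanog line on the other. Mitochondrial genes took 1.22% to 1.6% of counts in these 6 libraries. The 50 genes with the most reads took 11.1% to 11.3% of counts in the Esrrb line and 10.2% to 10.6% in the Esrrb+Nanog line.

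Nanog (ENSMUSG00000012396, mm10, chromosome 6, 122707489 to 122714633, GENCODE M21) stood at 29.7, 35.1 and 30.4 CPM (counts scaled to library size) in the 3 Esrrb libraries. The 3 Esrrb+Nanog libraries held 221, 289.5 and 333 CPM of it. Every Esrrb+Nanog library lay above every Esrrb library, and Nanog rose by 3.15 ± 0.13 on the log2 scale (adjusted p = 2.79e-07; here and below, fold changes are Esrrb+Nanog over Esrrb with standard errors, from edgeR's quasi-likelihood test with Benjamini-Hochberg adjustment). Since the deleted stretch of Nanog is not described, its reads check only that the lines differ in the direction of their titles.

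Esrrb (ENSMUSG00000021255, chromosome 12, 86361117 to 86521628) was at 769, 949 and 692 CPM in the Esrrb line, against 1113, 1151 and 1056 CPM in the Esrrb+Nanog line. The receptor that both lines were to hold in common was therefore higher in all 3 Esrrb+Nanog libraries (log2 fold change 0.46 ± 0.10, adjusted p = 0.0133). That call was lost without Esrrb replicate 1 (adjusted p = 0.0633) or Esrrb+Nanog replicate 2 (0.0544), and was also lost in a test against a fold change of 1.5. How far other genes followed this difference in Esrrb was not tested. Of the sorting markers, the adhesion molecule gene Pecam1 was at 68.6, 52 and 65 CPM against 46.4, 48.7 and 54.2 CPM, with overlapping lines and no call (log2 fold change -0.31 ± 0.10, adjusted p = 0.0728). It was called lower by DESeq2 (adjusted p = 0.0444), without a low-count filter (0.00541) and without Esrrb replicate 2 (0.0086).

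Of the 15585 autosomal genes, 2030 (13%) were called at an adjusted p below 0.05, 865 higher (5.55%) and 1165 lower (7.48%) in the Esrrb+Nanog line. The median log2 fold change was 0.60 among the genes called higher and -0.59 among those called lower, and 231 (1.48%) and 314 (2.01%) moved by more than 2-fold. Levels did not overlap between the lines in 4896 genes (31.4%), and 1980 of these were also called (12.7%). The split of the calls depended on scaling, since 42.6% of calls were higher with the trimmed mean scaling used here and 61.2% with scaling by library totals alone (1360 higher and 862 lower), which moved the median gene to 0.06 on the log2 scale.

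How firmly a call held depended on its adjusted p. All 217 genes with an adjusted p below 0.001, and all 358 between 0.001 and 0.005, kept their call without each of the 9 libraries in turn, as did 251 of 267 between 0.005 and 0.01. Of the 1188 genes between 0.01 and 0.05, 50 did so, so that a gene given below with an adjusted p above 0.01 may lose its call when 1 library is left out. Such fits also have fewer libraries to test with, and the 2 reasons for a lost call were not separated. Without Esrrb replicate 1 there were 388 genes higher and 647 lower, without Esrrb replicate 3 there were 533 and 772, and without Esrrb+Nanog replicate 2 there were 480 and 671.

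**Figure D1:**
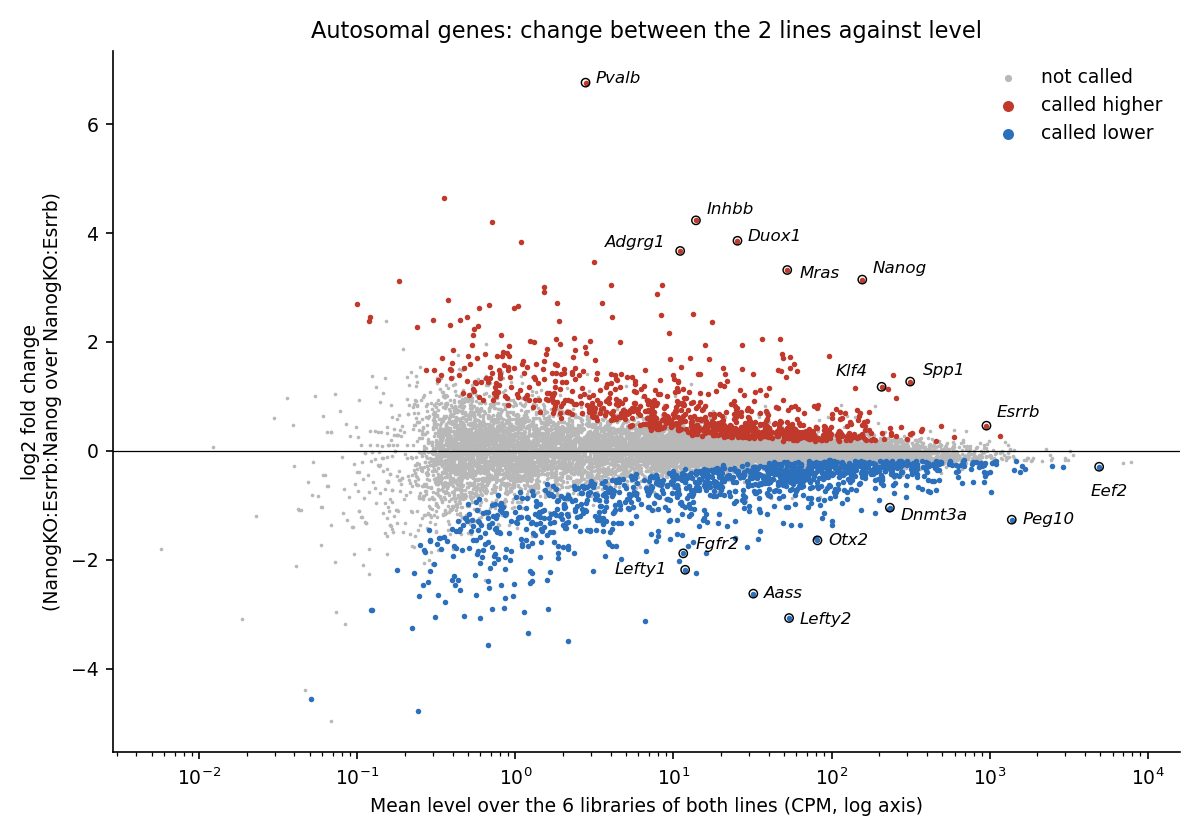
Each point is 1 of the 15585 tested autosomal genes, with its mean level over both lines on the x axis (CPM, log axis) and the log2 fold change of the Esrrb+Nanog line over the Esrrb line on the y axis. The 865 genes called higher (red) and 1165 called lower (blue) spread over all levels, while most of the highest-level called genes lie below the line at 0.

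Direction differed between expression levels, without a steady trend from low to high. The tested genes were split into 10 classes of nearly equal size by mean level. In the highest class, 149 CPM or more, 41 genes were higher and 200 lower (2.63% and 12.8% of 1559), and the median log2 fold change was -0.06. In the fifth class, from 7.34 to 15.05 CPM, 128 were higher and 116 lower, with a median of 0.04. The lowest class, up to 0.5488 CPM, again had more genes lower, with 33 higher and 53 lower and a median of -0.06. Among autosomes, the share called higher ran from 2.65% on chromosome 8 to 7.69% on chromosome 2, and the share called lower from 5.5% on chromosome 17 to 10.1% on chromosome 6. The medians of the 19 autosomes stayed between -0.04 (chromosome 13) and 0.02 (chromosome 9). Of 683 processed pseudogenes, 0 were higher and 21 lower (3.07%), and of 439 long intergenic non-coding RNAs, 19 were higher and 28 lower (4.33% and 6.38%). These shares lie under the 5.55% higher and 7.48% lower over all autosomal genes tested.

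**Figure D2:**
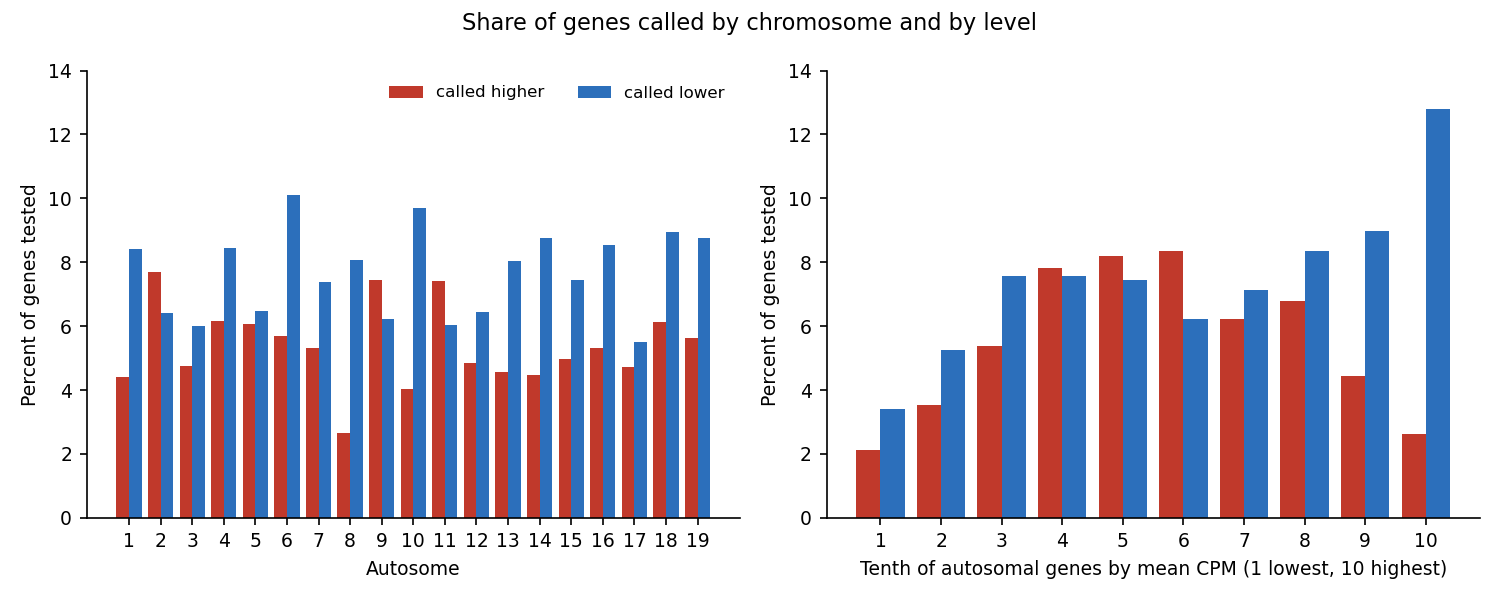
Bars give the percent of tested genes called higher (red) and lower (blue) in the Esrrb+Nanog line, by autosome in the left panel and by class of mean level in the right panel. Calls in the lower direction reach 12.8% in the highest class, where 2.63% are called higher, and both directions occur on every autosome.

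Genes with the largest rises and falls were chosen among called genes without overlap between the 2 lines, so their separation follows from that choice. The largest rise was that of Pvalb. Pvalb (parvalbumin, a calcium-binding protein, chromosome 15, 78191114 to 78206400) had 4 counts in the 3 Esrrb libraries together and 437 in the Esrrb+Nanog libraries. Its levels were 0.0346, 0.0944 and 0 CPM and 6.13, 7.12 and 3.29 CPM, and its fitted fold change (6.77 on the log2 scale, adjusted p = 5.3e-05) depends on those few counts, with 7.91 without Esrrb replicate 2. Inhbb (the beta B chain of activin B, chromosome 1, 119415465 to 119422248) was at 0.691, 2.49 and 0.922 CPM in the Esrrb line, against 9.71, 27 and 42.4 CPM in the Esrrb+Nanog line. The log2 fold change of Inhbb was 4.24 ± 0.53 (adjusted p = 0.000477), and 5.03 without Esrrb replicate 2, its highest Esrrb library.

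Mras (a small GTPase of the RAS family, chromosome 9, 99385420 to 99437381) went from 4.7, 19.2 and 4.3 CPM to 68.1, 108 and 110.4 CPM. The log2 fold change of Mras was 3.32 ± 0.46 (adjusted p = 0.000878), and without Esrrb replicate 2, which stood well above its partners, it was 4.40. Adgrg1, an adhesion G protein-coupled receptor gene (chromosome 8, 94974751 to 95014217), went from 1.8, 1.7 and 1.27 CPM to 15.8, 31.5 and 14 CPM. Its log2 fold change was 3.67 ± 0.32 (adjusted p = 5.21e-05), and its Nanog-null level was 3.74 CPM.

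Further genes of cell contact and guidance were among the 20 largest rises. Sema5b, a transmembrane semaphorin, rose from 1.84 ± 0.13 to 15.2 ± 1.1 CPM (mean ± SD, n = 3 per line, log2 fold change 3.04 ± 0.15, adjusted p = 5.11e-07). Itga9, an integrin alpha chain, rose from 5.7 ± 0.52 to 29.5 ± 5.9 CPM (log2 fold change 2.37 ± 0.15, adjusted p = 6.33e-06). The neural adhesion genes Cntn2 and Ncam1 rose by 1.99 and 1.95 on the log2 scale. Nanog-null means were 9.04 CPM for Itga9, 3 for Cntn2, 3.54 for Ncam1 and 0.600 for Sema5b, all under the Esrrb+Nanog level.

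Receptors and other signalling genes were also among these 20. Il6ra, the ligand-binding chain of the interleukin 6 receptor, rose from 3.39 ± 0.36 to 15.3 ± 3.9 CPM (log2 fold change 2.17 ± 0.19, adjusted p = 5.3e-05). Rapgef4, a cAMP-activated exchange factor, rose from 1.89 ± 0.87 to 13.8 ± 1.4 CPM (log2 fold change 2.89 ± 0.32, adjusted p = 0.000206). She, an SH2 adaptor, from 3.97 ± 0.55 to 22.8 ± 5.1 CPM (log2 fold change 2.52 ± 0.20, adjusted p = 2.34e-05). Shisa2, which holds back Wnt and FGF receptors in the secretory pathway, rose by 2.46 and the class I myosin Myo1f by 2.72 on the log2 scale. Tfap2a, a transcription factor of ectoderm and trophoblast, was at 1.9, 2.2 and 3.42 CPM in the Esrrb line and 17.1, 14.9 and 10.2 CPM in the Esrrb+Nanog line. Its log2 fold change was 2.49 ± 0.24 (adjusted p = 8.07e-05).

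Some of the largest rises ended close to the level of the Nanog-null line. Zc3hav1 (an antiviral zinc finger protein that binds CpG-rich RNA, chromosome 6, 38305286 to 38354603) held 35.3, 41.5 and 39.8 CPM in Nanog-null libraries, 10.3, 11.1 and 12 CPM in Esrrb libraries and 42.2, 39.7 and 47.4 CPM in Esrrb+Nanog libraries. The Esrrb line alone was low (log2 fold change 1.95 ± 0.10, adjusted p = 5.21e-07 for the Esrrb+Nanog over the Esrrb line). Emp1, an epithelial membrane protein, stepped up instead, with means of 3.11, 14 ± 1.3 and 58.3 ± 14 CPM in the Nanog-null, Esrrb and Esrrb+Nanog lines (log2 fold change 2.06 ± 0.21, adjusted p = 0.000109). Myof, a membrane repair protein of the ferlin family, went from 10.2 to 18.4 ± 2.5 and 76.4 ± 17 CPM in the same order (log2 fold change 2.05 ± 0.23, adjusted p = 0.000214).

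**Figure D3:**
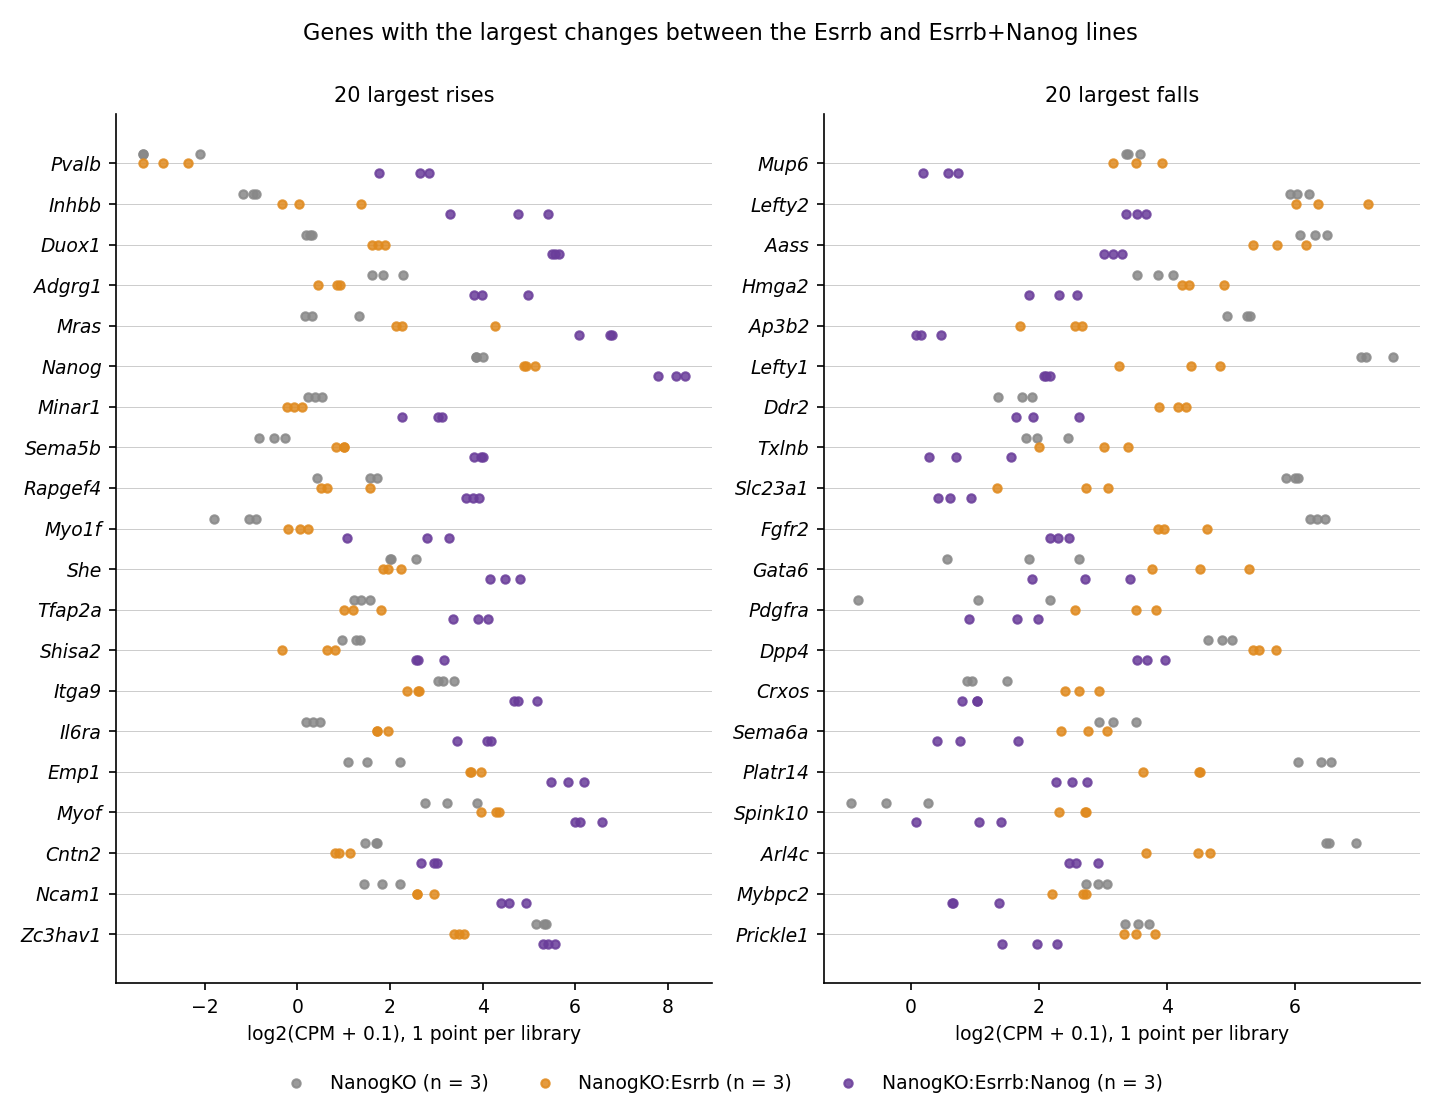
Rows are the 20 called autosomal genes with the largest rises (left) and falls (right) among those with at least 5 CPM in the higher line and no overlap, and each point is 1 library on a scale of log2(CPM + 0.1), grey for the Nanog-null line, orange for the Esrrb line and purple for the Esrrb+Nanog line. Purple and orange points are separate in every row by the choice of the genes, while the grey points lie near the orange ones in some rows (Mup6), near the purple ones in others (Zc3hav1) and beyond both in others (Lefty1).

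Duox1 lies in a group of neighbours that were all higher. Duox1 encodes a dual oxidase that makes hydrogen peroxide, and Duoxa1, on the opposite strand beside it, encodes the factor that brings the oxidase to the cell surface. Duox1 (chromosome 2, 122315672 to 122347972) was at 2.97, 3.24 and 3.61 CPM in the Esrrb line and 47.2, 50.1 and 45.3 CPM in the Esrrb+Nanog line, with little spread in either (log2 fold change 3.86 ± 0.10, adjusted p = 2.07e-09). Duoxa1 was at 0.311, 0.503 and 0.154 CPM and 2.73, 3.46 and 1.93 CPM (log2 fold change 3.01 ± 0.44, adjusted p = 0.00121). The second oxidase gene, Duox2, was at 0.311, 0.441 and 0.499 CPM and 1.59, 1.41 and 1.23 CPM, low in both lines without overlap (log2 fold change 1.75 ± 0.26, adjusted p = 0.00131). Shf, an SH2 adaptor gene on the other side of Duox1, rose from 24.7 ± 1.2 to 55.4 ± 5.5 CPM (log2 fold change 1.16 ± 0.09, adjusted p = 1.5e-05). These 4 genes are consecutive among the tested genes on chromosome 2, from 122279247 to 122369162 (89.9 kb).

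Gjb5, which encodes a connexin, a subunit of gap junctions (chromosome 4, 127354809 to 127358181), held 3.01, 2.89 and 3.58 CPM in Nanog-null libraries, 11.9, 14.7 and 11.7 CPM in Esrrb libraries and 28.9, 28.4 and 30.4 CPM in Esrrb+Nanog libraries. It was higher at each step, without overlap (log2 fold change 1.19 ± 0.11, adjusted p = 6.44e-05 for the last).

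The 250 bases before the start of Duoxa1, Duox1 and Gjb5 are shown as examples, picked by hand among the 865 genes called higher. Matches to AAGGTCA, the extended half-site known to be bound by ESRRB, are in capitals. Sequences are from RefSeq (GRCm38.p6), 5′ to 3′ on the strand of the gene, with chr2:122313731-122313980 (minus strand) for Duoxa1, chr2:122315422-122315671 (plus strand) for Duox1 and chr4:127358165-127358414 (minus strand) for Gjb5.
Duoxa1: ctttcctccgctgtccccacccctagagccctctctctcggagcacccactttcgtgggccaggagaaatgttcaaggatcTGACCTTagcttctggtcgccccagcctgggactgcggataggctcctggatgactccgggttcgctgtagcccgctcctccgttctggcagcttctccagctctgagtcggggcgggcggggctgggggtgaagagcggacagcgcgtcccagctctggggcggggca
Duox1: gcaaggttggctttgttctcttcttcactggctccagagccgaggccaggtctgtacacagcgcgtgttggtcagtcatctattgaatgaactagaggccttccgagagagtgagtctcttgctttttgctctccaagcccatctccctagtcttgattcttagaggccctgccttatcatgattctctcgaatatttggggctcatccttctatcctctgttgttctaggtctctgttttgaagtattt
Gjb5: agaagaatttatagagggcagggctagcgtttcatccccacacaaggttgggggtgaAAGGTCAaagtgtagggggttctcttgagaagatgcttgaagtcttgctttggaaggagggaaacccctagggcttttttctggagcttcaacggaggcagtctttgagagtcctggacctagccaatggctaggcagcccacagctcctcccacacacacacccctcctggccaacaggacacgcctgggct
The Duoxa1 sequence holds the motif once on the other strand, where it reads TGACCTT, beginning 169 bases before the start, and the Gjb5 sequence holds it once on the strand of the gene, 193 bases before the start. The Duox1 sequence has no match in this window.

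Across all autosomal genes with a promoter sequence (10977 of 15580 tested symbols), AAGGTCA was found on either strand in 3.64%, in 3.93% of the genes called higher and in 4.66% of those called lower. The octamer ATGCAAAT, bound by OCT4, was in 1.53% of all, 1.66% of the higher and 2.79% of the lower genes. TAATGG, a core of homeodomain sites of the NANOG kind, was in 4.85%, 4.68% and 5.01%, and CAGACA, a SMAD box, in 16.2%, 16.3% and 17.8%. Each share counts genes with at least 1 match on either strand in the 250 bases before a start, over 662 higher and 859 lower genes with such a sequence, and no motif contains another.

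The largest falls included secreted antagonists, growth factor receptors and an ascorbate transporter. Lefty2 (an antagonist of Nodal, chromosome 1, 180893108 to 180899103) was at 142, 64.7 and 82.1 CPM in the Esrrb line, against 10.2, 12.8 and 11.4 CPM in the Esrrb+Nanog line (log2 fold change -3.07 ± 0.25, adjusted p = 2.66e-05). Its neighbour and close relative Lefty1 (chromosome 1, 180935022 to 180938400) was at 28.2, 9.44 and 20.7 CPM and 4.14, 4.22 and 4.41 CPM (log2 fold change -2.19 ± 0.33, adjusted p = 0.0015). The Esrrb+Nanog libraries lay close together for both genes, whereas the Esrrb libraries spread widely. In the Nanog-null line Lefty2 had a mean of 66.8 ± 7.1 CPM and Lefty1 one of 152 ± 29 CPM, so that Lefty1 alone stood lower in the Esrrb than in the Nanog-null line. Nearby on chromosome 1, Tmem63a (an ion channel) and Ephx1 (epoxide hydrolase) fell by 1.19 and 1.04 on the log2 scale (adjusted p = 0.00767 and 0.0016).

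Aass, the first enzyme of lysine breakdown (chromosome 6, 23072173 to 23132986), went from 52.4, 40.8 and 72.1 CPM to 8.86, 8.04 and 9.8 CPM (log2 fold change -2.62 ± 0.19, adjusted p = 1.5e-05). Hmga2, a DNA-bending chromatin protein (chromosome 10, 120361275 to 120476469), went from 20.2, 18.8 and 29.6 CPM to 4.87, 3.5 and 5.95 CPM (log2 fold change -2.25 ± 0.22, adjusted p = 0.000104). Nanog-null levels, 79.3 ± 11 CPM for Aass and 14.3 ± 2.8 CPM for Hmga2, were above those of the Esrrb+Nanog line for both genes. Mup6 fell by 3.12 on the log2 scale (adjusted p = 1.37e-05), but it belongs to the major urinary proteins, whose copies are nearly identical, so its reads are uncertain.

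Fgfr2, a receptor of FGF signals (chromosome 7, 130162451 to 133123350), held 88.2, 81.5 and 75.2 CPM in Nanog-null libraries, 15.4, 14.5 and 24.5 CPM in Esrrb libraries and 5.43, 4.83 and 4.45 CPM in Esrrb+Nanog libraries. It was lower at each step, without overlap (log2 fold change -1.88 ± 0.19, adjusted p = 0.000106 for the last). The vitamin C transporter gene Slc23a1 had the same order, with 62.7 ± 4.3, 5.82 ± 3.1 and 1.5 ± 0.29 CPM (log2 fold change -1.92 ± 0.37, adjusted p = 0.00621). So did Ap3b2, a subunit of a neuronal adaptor complex, with 35.9 ± 4.6, 5.09 ± 1.7 and 1.09 ± 0.18 CPM (log2 fold change -2.21 ± 0.27, adjusted p = 0.000402). Arl4c, a small GTPase, stepped down from 102 to 20.1 and 6.28 CPM (log2 fold change -1.68 ± 0.24, adjusted p = 0.00113). The non-coding RNA Platr14 had 81.8, 19.2 and 5.68 CPM (log2 fold change -1.75 ± 0.24, adjusted p = 0.000745).

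Another set was high in the Esrrb line alone. Gata6 (a regulator of primitive endoderm) held 1.39, 6.09 and 3.51 CPM in Nanog-null libraries, 13.5, 39 and 22.9 CPM in Esrrb libraries and 3.62, 10.6 and 6.48 CPM in Esrrb+Nanog libraries. Its libraries spread widely within each line, with replicate 1 lowest and replicate 2 highest in every line. The Gata6 call (log2 fold change -1.87 ± 0.47, adjusted p = 0.022) was lost without Esrrb replicate 2 (adjusted p = 0.0555) or Esrrb+Nanog replicate 1 (0.0648) or 3 (0.068). It was also lost against a fold change of 1.5 (0.163), but was kept with DESeq2 (0.0382) and with a replicate block (8.23e-06). Pdgfra, whose protein the sort selected against, was at 0.463, 4.43 and 1.97 CPM in Nanog-null, 5.84, 11.4 and 14.1 CPM in Esrrb and 1.77, 3.86 and 3.08 CPM in Esrrb+Nanog libraries. Its call (log2 fold change -1.85 ± 0.51, adjusted p = 0.0337) was lost without Nanog-null replicate 3, Esrrb replicate 2 or 3, or any of the Esrrb+Nanog replicates, as well as with DESeq2 (adjusted p = 0.0803) and against a fold change of 1.5 (0.235). The Pdgfra call was kept with a replicate block (0.00228), with the 2 lines alone (0.0117) and without Nanog-null replicate 1 (0.0112) or 2 (0.0136). In such bulk RNA, fewer cells of a type and less RNA per cell cannot be told apart. Ddr2, a collagen receptor, was more even, with 3.11 ± 0.59, 17.3 ± 2.5 and 4.26 ± 1.6 CPM (log2 fold change -2.02 ± 0.23, adjusted p = 0.000254). The homeobox gene Crxos had 2.11 ± 0.55, 6.29 ± 1.2 and 1.85 ± 0.18 CPM (log2 fold change -1.75 ± 0.21, adjusted p = 0.000396).

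The called genes with the most reads changed little in size. Among those higher, Polr2a, the large subunit of RNA polymerase II, went from 1058 ± 22 to 1280.0 ± 115 CPM (log2 fold change 0.27 ± 0.07, adjusted p = 0.0207), and Spp1 (osteopontin) from 181, 179.5 and 191 CPM to 422, 447 and 464 CPM (log2 fold change 1.27 ± 0.06, adjusted p = 5.11e-07). Spp1 was the only one of the 10 with a change over 2-fold. Among those lower, the elongation factor gene Eef2 went from 5429 ± 464 to 4432 ± 234 CPM (log2 fold change -0.29 ± 0.08, adjusted p = 0.0253), the nucleolar protein gene Npm1 fell by 0.28 and the matrix gene Fn1 by 0.35 on the log2 scale. Peg10, an imprinted gene derived from a retrotransposon (chromosome 6, 4747306 to 4760517), was the exception, with 1839.8, 1971 and 2039.5 CPM in the Esrrb line and 900.1, 842 and 692 CPM in the Esrrb+Nanog line. Every Esrrb+Nanog library lay below every library of the other 2 lines (log2 fold change -1.26 ± 0.09, adjusted p = 1.38e-05), from a Nanog-null level of 1882 ± 109 CPM. Library totals ended the calls of Eef2 and Fn1.

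Naive pluripotency genes moved in both directions. The list holds Nanog itself, which counts among those higher (log2 fold change 3.15) and is the gene by which the titles separate the lines. Of 20 tested, 5 were higher and 4 lower (9 and 5 without a low-count filter), with a median log2 fold change of 0.14, beside a median near 0 over all 15585 genes, of which 5.55% were higher and 7.48% lower. Those 2 shares are also the background of the other list counts in the main comparison. With library totals the background was 1360 higher and 862 lower of 15585 genes. Without a low-count filter it was 1206 and 1590 of 30786. Klf4, a Kruppel-like factor downstream of LIF, held 5.79, 7.43 and 6.72 CPM in Nanog-null libraries, 108, 171 and 103 CPM in Esrrb libraries and 305, 287 and 271 CPM in Esrrb+Nanog libraries. It rose above every Esrrb library (log2 fold change 1.18 ± 0.16, adjusted p = 0.000708). Prdm14, which restrains FGF signalling and DNA methylation, went from 7.29, 7.14 and 7.3 CPM to 13.3, 12.2 and 15.7 CPM, with an even level within each line (log2 fold change 0.92 ± 0.12, adjusted p = 0.000676). Stat3, the effector of LIF, went from 120.2, 173 and 116 CPM to 199, 203 and 199 CPM (log2 fold change 0.55 ± 0.12, adjusted p = 0.0122), a call lost without Esrrb replicate 1. Leave-one-out fits changed the count to 3 higher and 4 lower without Esrrb replicate 1.

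On the other side of that list, Dppa5a, an RNA-binding protein of naive cells, fell from 801 ± 67 to 534 ± 10.5 CPM (log2 fold change -0.58 ± 0.06, adjusted p = 0.000218). Klf2 fell from 368 ± 15 to 276 ± 27 CPM (log2 fold change -0.41 ± 0.08, adjusted p = 0.00577) and the nuclear receptor gene Nr5a2 from 156 ± 15 to 129 ± 5.3 CPM (log2 fold change -0.28 ± 0.08, adjusted p = 0.0389). Dppa3, also called Stella, was low in both lines at 1.8, 1.1 and 1.19 CPM and 0.406, 0.322 and 0.420 CPM (log2 fold change -1.81 ± 0.25, adjusted p = 0.000975). Tfcp2l1 (887 and 882 CPM, -0.01, adjusted p = 0.972), Zfp42 (634 and 725 CPM, 0.19, adjusted p = 0.163) and Tbx3 (329.6 and 369 CPM, 0.16, adjusted p = 0.581) were not called.

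Pluripotency genes that naive and later states share gave 0 higher and 5 lower of 17 (0 and 8 without a low-count filter), with a median of -0.20. Lin28a, which blocks let-7 processing, was at 408, 448 and 439 CPM in the Esrrb line and 239.9, 261 and 317 CPM in the Esrrb+Nanog line (log2 fold change -0.66 ± 0.09, adjusted p = 0.000852). Its libraries did not overlap. L1td1, an RNA-binding protein, went from 1868 ± 55 to 1482 ± 151 CPM (log2 fold change -0.33 ± 0.07, adjusted p = 0.0117) and Sox2, the partner of OCT4, from 753 ± 63 to 620.2 ± 46 CPM (log2 fold change -0.28 ± 0.08, adjusted p = 0.036). The list's count became 0 higher and 3 lower without Nanog-null replicate 3, Esrrb replicates 1 or 3 or Esrrb+Nanog replicate 2, and was 0 and 3 with scaling by library totals.

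Genes of the formative and primed epiblast gave 2 higher and 8 lower of 22, with a median of -0.17. Otx2, a homeobox regulator of the step out of the naive state, was at 141, 92.7 and 137 CPM in the Esrrb line and 55.5, 32.6 and 30.3 CPM in the Esrrb+Nanog line (log2 fold change -1.64 ± 0.22, adjusted p = 0.000642). Dnmt3a, a de novo DNA methyltransferase, was at 345, 325 and 275 CPM and 136, 164 and 158 CPM, and its relative Dnmt3b at 505, 428 and 452 CPM and 275, 295 and 285 CPM. Both fell well beyond the spread of their libraries (log2 fold change -1.04 ± 0.09, adjusted p = 3.8e-05 for Dnmt3a and log2 fold change -0.70 ± 0.08, adjusted p = 0.000192 for Dnmt3b). Dnmt3l, their cofactor, fell from 732 ± 110.0 to 522 ± 29.6 CPM (log2 fold change -0.49 ± 0.09, adjusted p = 0.00523). The called members of the DNA methylation list, 0 higher and 3 lower of 16 (2 and 3 with library totals or 2 and 4 without a low-count filter), were these 3 genes.

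Against the Nanog-null line the methyltransferase genes differed in their order. Dnmt3a was at 181 ± 0.28 CPM there, below the Esrrb line, while Dnmt3b was at 589 ± 46 CPM, above it. Dnmt3l was at 801 ± 16 CPM there and overlapped the Esrrb line. Foxp1, a forkhead factor, went down step by step from 178 ± 15 to 98.1 ± 17 and 50.4 ± 1.3 CPM (log2 fold change -0.96 ± 0.11, adjusted p = 0.000264). The neural zinc finger genes Zic2 and Zic5 were the 2 members that were higher. Zic2 had 21, 8.4 and 25.5 against 35.6, 31.1 and 45.2 CPM (log2 fold change 1.03 ± 0.29, adjusted p = 0.0394). For Zic5 the values were 11.2, 5.41 and 14.2 against 18.4, 17.2 and 21.8 CPM (log2 fold change 0.91 ± 0.25, adjusted p = 0.0337). Esrrb replicate 2 was the lowest library for both. The formative count became 1 higher and 7 lower without Nanog-null replicate 3 and 0 higher and 6 lower without Esrrb replicate 1 or Esrrb+Nanog replicates 1 or 2. Leaving out Esrrb+Nanog replicate 3 gave 0 higher and 9 lower. The methylation count became 1 higher and 3 lower without Nanog-null replicate 1 and 2 higher and 4 lower without Nanog-null replicate 2.

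Nodal and activin genes gave 2 higher and 3 lower of 21 (3 and 7 without a low-count filter), and their median was -0.04, or 0.03 with library totals. The ligand Nodal itself was at 59.5 and 55.5 CPM and not called (-0.10, adjusted p = 0.477), while Inhbb rose and both Lefty genes fell. Smad7, an inhibitor of the receptors, rose from 131 ± 17 to 181 ± 18 CPM (log2 fold change 0.47 ± 0.11, adjusted p = 0.017). Skil, a repressor of SMAD targets, was at 223, 142 and 263 CPM in the Esrrb line and 103, 98.4 and 94.5 CPM in the Esrrb+Nanog line (log2 fold change -1.08 ± 0.17, adjusted p = 0.00212). Its 3 Esrrb+Nanog libraries lay close together under a wide spread in the Esrrb line. The number of calls became 1 higher and 4 lower without Esrrb replicate 3 and 1 higher and 3 lower without Esrrb+Nanog replicate 2.

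BMP genes gave 3 higher and 2 lower of 17 beside 5.55% higher and 7.48% lower over all genes, with a median of 0.03, and the Id genes, which block basic helix-loop-helix factors, split. Id3 was at 21.3, 23.4 and 20.8 CPM in the Esrrb line and 33.9, 41.7 and 35.2 CPM in the Esrrb+Nanog line (log2 fold change 0.76 ± 0.14, adjusted p = 0.00411). Id1 was at 82.5, 95.8 and 84.1 CPM and 59.7, 66 and 51.3 CPM (log2 fold change -0.57 ± 0.09, adjusted p = 0.00237). Id2 was at 19.5, 18 and 28.9 CPM and 11.2, 8.53 and 9.98 CPM (log2 fold change -1.16 ± 0.19, adjusted p = 0.00231). Id3 thus rose while Id1 and Id2 fell, each without overlap. Leave-one-out fits changed the count to 1 higher and 2 lower without Esrrb replicates 1 or 3 or Esrrb+Nanog replicate 3.

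FGF and ERK genes gave 1 higher and 5 lower of 21 (2 and 4 with library totals or 2 and 8 without a low-count filter) with a median of -0.13. Beside Fgfr2, the ERK phosphatase gene Dusp4 was at 129.9, 105 and 127 CPM in the Esrrb line and 46.7, 41.9 and 30.7 CPM in the Esrrb+Nanog line (log2 fold change -1.60 ± 0.13, adjusted p = 3.68e-05). Etv1, an ETS factor, fell from 74.6 ± 12 to 45.9 ± 1.3 CPM (log2 fold change -0.70 ± 0.11, adjusted p = 0.0023). The feedback inhibitors Spry2 and Spred2 fell by 0.31 and 0.30 and Spred1 rose by 0.27 on the log2 scale, while the ligand Fgf4 was at 159.7 and 162 CPM and not called (0.02, adjusted p = 0.933). The list's count became 2 higher and 5 lower without Nanog-null replicate 1 or Esrrb+Nanog replicate 3 and 3 higher and 6 lower without Nanog-null replicate 2. With Esrrb replicate 1 left out, the count was 0 higher and 5 lower. It was 0 higher and 4 lower without Esrrb+Nanog replicate 2.

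LIF and STAT3 genes gave 2 higher, Klf4 and Stat3, and 0 lower of 15 (4 and 0 with library totals or 6 and 0 without a low-count filter), with a median of 0.19. Socs3, a feedback inhibitor of the pathway, was at 106, 287 and 93.5 CPM against 218, 228 and 245 CPM, overlapping and not called (0.50, adjusted p = 0.338). The count depended on Esrrb replicate 2, in which Klf4 (108, 171 and 103 CPM over the 3 Esrrb libraries) and Stat3 (120.2, 173 and 116 CPM) were both highest. It became 1 higher and 0 lower without Esrrb replicate 1 and 7 higher and 0 lower without Esrrb replicate 2. A fit without Esrrb+Nanog replicate 1 gave 2 higher and 2 lower.

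Wnt genes gave 3 higher and 3 lower of 28 (5 and 3 with library totals or 6 and 6 without a low-count filter) with a median of -0.05, or 0.01 with library totals. The secreted antagonist Sfrp1 was at 26.6, 21.5 and 23.9 CPM in the Esrrb line and 62.8, 57.2 and 81.8 CPM in the Esrrb+Nanog line (log2 fold change 1.49 ± 0.13, adjusted p = 5.51e-05). Its relative Sfrp2 went from 23.6 ± 0.33 to 14.8 ± 0.81 CPM (log2 fold change -0.67 ± 0.09, adjusted p = 0.000904), so that the 2 antagonists differed in direction. The receptor gene Fzd7 was at 268, 231 and 276 CPM and 151, 125 and 139 CPM (log2 fold change -0.90 ± 0.08, adjusted p = 6.44e-05). Tcf7l2, a nuclear effector, rose from 8.01 ± 0.81 to 12.2 ± 0.66 CPM (log2 fold change 0.61 ± 0.12, adjusted p = 0.00591). The number of calls became 5 higher and 3 lower without Nanog-null replicate 1.

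Genes of glycolysis gave 0 higher and 11 lower of 19, with a median of -0.30. Ldha, lactate dehydrogenase, was at 1339, 1299 and 1195 CPM in the Esrrb line and 609.6, 778 and 888 CPM in the Esrrb+Nanog line (log2 fold change -0.75 ± 0.11, adjusted p = 0.00113). The lactate exporter gene Slc16a3 was at 172, 156 and 135 CPM and 64.2, 82.9 and 91.2 CPM (log2 fold change -0.96 ± 0.12, adjusted p = 0.000553). The phosphofructokinase gene Pfkm was at 142, 126 and 108 CPM and 64.1, 79.2 and 62.9 CPM (log2 fold change -0.87 ± 0.11, adjusted p = 0.0005). All 3 genes fell without overlap, and Esrrb+Nanog replicate 1 was the lowest or close to the lowest library for each. Smaller falls were called in Pfkl (-0.46), Tpi1 (-0.54), Aldoa (-0.39), Eno1 (-0.42), Slc2a1 (-0.40), Pdk1 (-0.38), Pkm (-0.30) and Gapdh (-0.28, all log2 fold changes), with adjusted p from 0.00113 (Tpi1) to 0.0332 (Slc2a1), the Gapdh call being lost with library totals. Leave-one-out fits changed the count to 0 higher and 6 lower without Esrrb replicate 1 and 1 higher and 10 lower without Esrrb replicate 2 or Esrrb+Nanog replicate 1, and with library totals it was 1 and 9.

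The next lists of metabolism had genes called lower and 0 called higher. Genes of the hypoxia response gave 0 higher and 4 lower of 17 (0 and 2 with library totals or 1 and 8 without a low-count filter) with a median of -0.27. Bnip3, a mitophagy receptor, was at 49.6, 40.7 and 50.1 CPM in the Esrrb line and 20.1, 21.8 and 24.9 CPM in the Esrrb+Nanog line (log2 fold change -1.07 ± 0.11, adjusted p = 0.000133). The list's count became 0 higher and 1 lower without Esrrb replicate 1 or Esrrb+Nanog replicates 1 or 2. Threonine, serine and one-carbon genes gave 0 higher and 4 lower of 18 (0 and 2 with library totals or 0 and 9 without a low-count filter) with a median of -0.21. Gldc, the glycine decarboxylase, was at 574, 442 and 569.5 CPM and 341, 289 and 306 CPM (log2 fold change -0.76 ± 0.10, adjusted p = 0.000559). Tdh, the threonine dehydrogenase of mouse stem cells, went from 372 ± 9.2 to 289 ± 8.1 CPM (log2 fold change -0.36 ± 0.06, adjusted p = 0.00199). That count became 0 higher and 2 lower without Nanog-null replicate 3, Esrrb replicates 1 or 3 or Esrrb+Nanog replicates 2 or 3 and 0 higher and 9 lower without Esrrb replicate 2.

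The response to the stress factor ATF4 gave 0 higher and 4 lower of 17 (1 and 6 without a low-count filter) with a median of -0.14. Ddit4, an inhibitor of mTORC1, was at 70.6, 56.8 and 83.3 CPM in the Esrrb line and 31.9, 27.2 and 25.2 CPM in the Esrrb+Nanog line (log2 fold change -1.32 ± 0.17, adjusted p = 0.0005). The stress sensor gene Sesn2 fell from 247 ± 36 to 164 ± 16 CPM (log2 fold change -0.59 ± 0.10, adjusted p = 0.00278). Targets of p53 gave 0 higher and 5 lower of 16 (0 and 3 with library totals) with a median of -0.27. The apoptosis genes Pmaip1 (Noxa) and Bbc3 (Puma) fell from 78.1 ± 5 to 39.6 ± 6.4 CPM (log2 fold change -0.98 ± 0.10, adjusted p = 0.000156) and from 54.8 ± 6.1 to 39.1 ± 2.8 CPM (log2 fold change -0.49 ± 0.09, adjusted p = 0.00546). The ATF4 count became 0 higher and 2 lower without Esrrb replicates 1 or 3 or Esrrb+Nanog replicates 2 or 3 and 0 higher and 7 lower without Esrrb replicate 2. The p53 count became 0 higher and 3 lower without Esrrb replicate 1 or Esrrb+Nanog replicates 1 or 2 and 0 higher and 2 lower without Esrrb replicate 3.

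Of 17 nuclear genes of the respiratory chain, 0 were called by edgeR and 0 by DESeq2, 1 had an unadjusted p below 0.05, and the list had a median of -0.03 that turned to 0.03 with library totals. The complex I gene Ndufa9 was at 134 ± 4.8 and 119.9 ± 5.5 CPM (log2 fold change -0.16 ± 0.06, adjusted p = 0.0904) and the cytochrome c gene Cycs at 41.4 ± 4.1 and 46.8 ± 4.3 CPM (log2 fold change 0.18 ± 0.09, adjusted p = 0.222). Whether this list differed from glycolysis was not tested. Cholesterol and fatty acid genes gave 2 higher (Dhcr7 and Srebf2) and 2 lower (Scd2 and Acaca) of 24 (3 and 1 with library totals), with a median of -0.01, or 0.06 with library totals. Scd2, a fatty acid desaturase, was at 584, 406 and 537 CPM in the Esrrb line and 255, 320.1 and 345 CPM in the Esrrb+Nanog line (log2 fold change -0.73 ± 0.13, adjusted p = 0.00448). The number of calls became 2 higher and 1 lower without Nanog-null replicate 2 and 1 higher and 1 lower without Nanog-null replicate 3 or Esrrb replicate 1. Without Esrrb replicate 2 it was 4 higher and 2 lower. Leaving out Esrrb replicate 3 or Esrrb+Nanog replicate 2 gave 0 higher and 1 lower. With Esrrb+Nanog replicate 1 left out, the count was 3 higher and 1 lower. It was 0 higher and 2 lower without Esrrb+Nanog replicate 3.

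**Figure D4:**
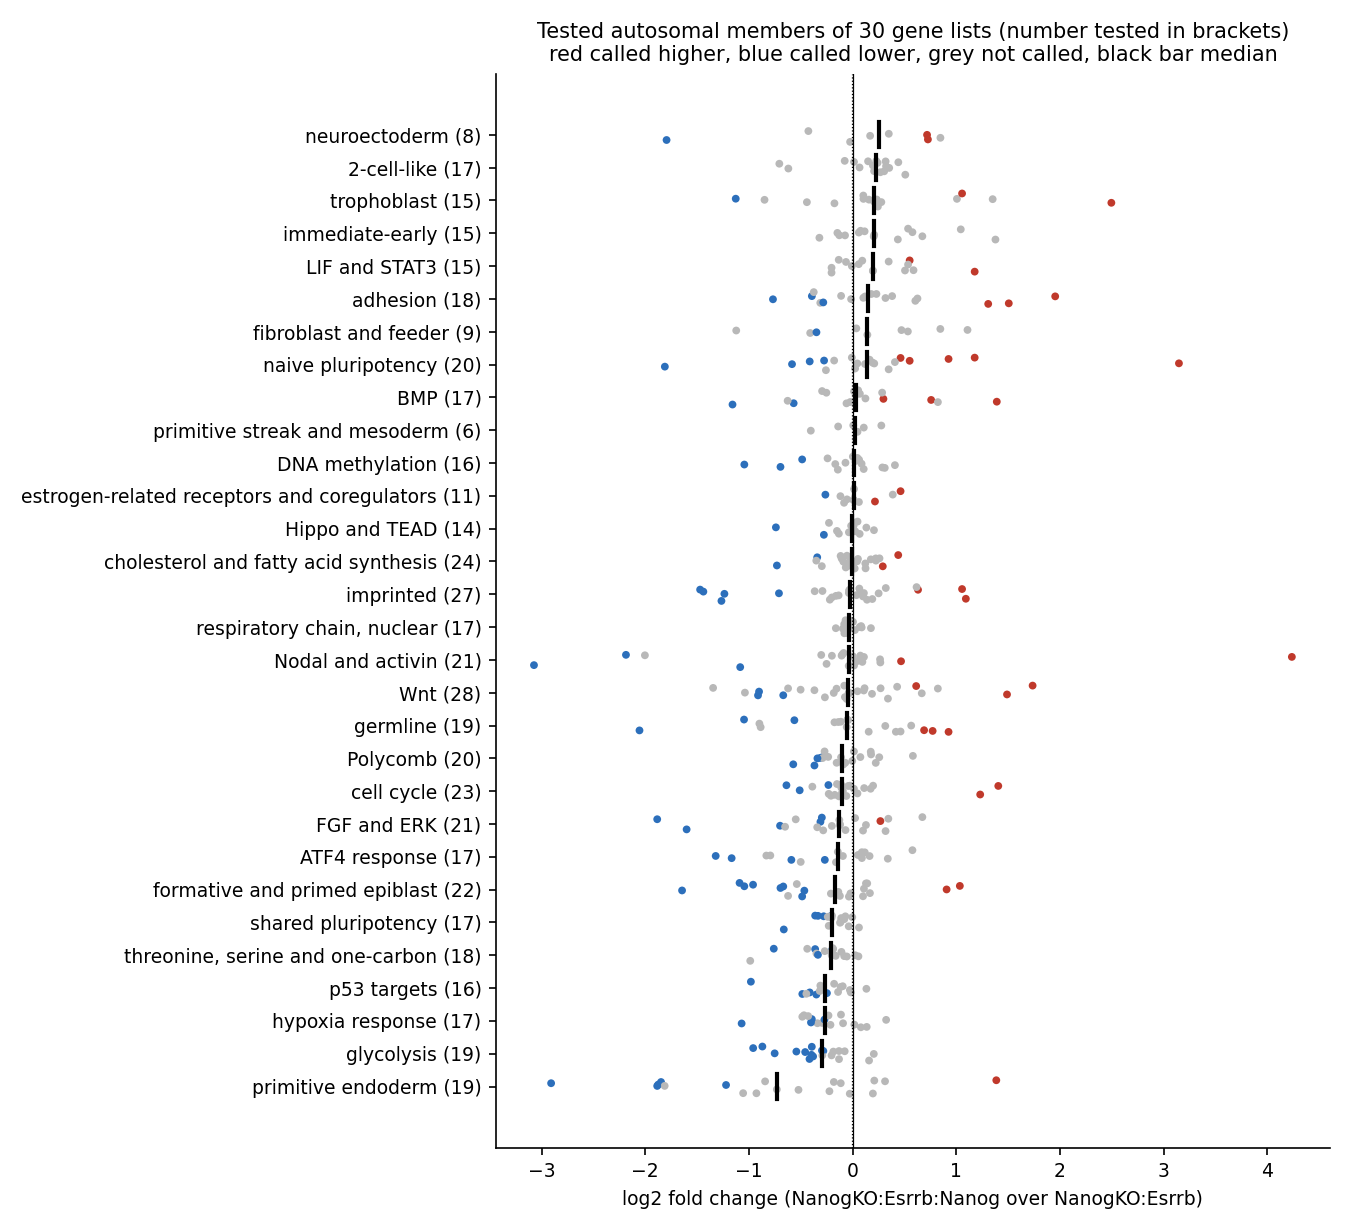
Each point is a tested autosomal member of 1 of 30 gene lists, placed by its log2 fold change (Esrrb+Nanog line over Esrrb line), red where called higher, blue where called lower and grey where not called, with the list's median as a black bar. Glycolysis has 11 blue points of 19 and a median of -0.30, and naive pluripotency 5 red (Nanog itself included) and 4 blue of 20. The respiratory chain, 2-cell-like, immediate-early and streak lists have no coloured point. Medians of the Nodal, Wnt, Hippo, cholesterol, respiratory chain, imprinted and germline lists change sign with library totals.

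Among regulators of chromatin and the cycle, Polycomb genes gave 0 higher and 5 lower of 20 (0 and 3 with library totals or 0 and 8 without a low-count filter) with a median of -0.10. Jarid2, a cofactor that recruits the complex, was at 1105, 1023 and 1197 CPM in the Esrrb line and 756, 737 and 743 CPM in the Esrrb+Nanog line (log2 fold change -0.57 ± 0.07, adjusted p = 0.000397). The accessory subunit gene Aebp2 fell from 175 ± 4.2 to 135 ± 2.9 CPM (log2 fold change -0.37 ± 0.06, adjusted p = 0.00221). Phc1 went from 854 ± 72 to 674 ± 26 CPM (log2 fold change -0.34 ± 0.07, adjusted p = 0.00614). Leave-one-out fits changed the count to 0 higher and 3 lower without Nanog-null replicate 3, Esrrb replicate 1 or Esrrb+Nanog replicate 2. Cell-cycle genes gave 2 higher and 3 lower of 23 (2 and 5 without a low-count filter) with a median of -0.10. Myc was at 94.2, 105 and 98 CPM and 46.6, 66.4 and 77.8 CPM (log2 fold change -0.64 ± 0.15, adjusted p = 0.0166). The cyclin gene Ccnd1 was at 12, 11 and 12.4 CPM and 15.9, 19.9 and 47 CPM, with 1 Esrrb+Nanog library far above its partners (log2 fold change 1.23 ± 0.31, adjusted p = 0.0246). The list's count became 0 higher and 1 lower without Esrrb replicate 1 and 2 higher and 5 lower without Esrrb replicate 2. A fit without Esrrb replicate 3 gave 1 higher and 2 lower. Without Esrrb+Nanog replicate 2 it was 2 higher and 1 lower. Leaving out Esrrb+Nanog replicate 3 gave 1 higher and 3 lower.

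Imprinted genes gave 3 higher and 5 lower of 27, with a median of -0.03, or 0.04 with library totals. Phlda2, a maternally expressed gene that limits placental growth, was at 10.2, 13.1 and 12.4 CPM in the Esrrb line and 23.8, 24.3 and 28 CPM in the Esrrb+Nanog line (log2 fold change 1.09 ± 0.11, adjusted p = 8.95e-05), against 36.9 ± 1.7 CPM in the Nanog-null line. Beside Peg10, Snrpn fell from 164 ± 21 to 100.1 ± 4.5 CPM (log2 fold change -0.71 ± 0.09, adjusted p = 0.0005). So did the linked genes H19, from 5.95 ± 1.6 to 2.2 ± 0.21 CPM (log2 fold change -1.44 ± 0.24, adjusted p = 0.00282), and Igf2, from 11.8 ± 4.8 to 4.26 ± 0.62 CPM (log2 fold change -1.47 ± 0.38, adjusted p = 0.0272). The number of calls became 3 higher and 3 lower without Esrrb+Nanog replicate 2. Of 17 genes of the 2-cell-like state, 0 were called by edgeR and 0 by DESeq2, though edgeR without a low-count filter called Zscan4a and Zscan4d higher, 0 had an unadjusted p below 0.05, and the median was 0.23. Zscan4d was at 6.81, 13.2 and 14.1 CPM and 9.12, 15.1 and 24.2 CPM, overlapping (log2 fold change 0.51 ± 0.32, adjusted p = 0.33). The copies of Zscan4 and Usp17l are nearly identical, so the division of reads among them is uncertain.

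Germline genes gave 3 higher and 3 lower of 19, with a median of -0.05, or 0.02 with library totals. The RNA helicase gene Ddx4 rose from 19.9 ± 3.7 to 32 ± 3.3 CPM (log2 fold change 0.69 ± 0.13, adjusted p = 0.00433) and the meiotic gene Hormad1 fell from 6.98 ± 1.5 to 3.37 ± 0.39 CPM (log2 fold change -1.05 ± 0.22, adjusted p = 0.00855). Adhesion genes gave 3 higher and 3 lower of 18 (4 and 5 without a low-count filter) with a median of 0.15. Cdh3, P-cadherin, held 48.1, 50.7 and 53.6 CPM in Nanog-null libraries, 16.8, 10.4 and 15.4 CPM in Esrrb libraries and 40.1, 41.7 and 38.8 CPM in Esrrb+Nanog libraries, so that the Esrrb line alone was low (log2 fold change 1.51 ± 0.14, adjusted p = 6.47e-05). Cdh1, E-cadherin, went down from 418 ± 16 to 213 ± 19 and 162 ± 8 CPM (log2 fold change -0.39 ± 0.07, adjusted p = 0.00433). The integrin chain gene Itgb3 rose from 2.53 ± 0.31 to 6.28 ± 0.88 CPM (log2 fold change 1.31 ± 0.21, adjusted p = 0.0022). The adhesion count became 5 higher and 5 lower without Esrrb replicate 2.

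The smaller lists of regulators gave few calls. Estrogen-related receptors and coregulators gave 2 higher (Esrrb and Med1) and 1 lower (Ncoa3, a coactivator known to join ESRRB in embryonic stem cells, 478 ± 13 to 398 ± 17 CPM, log2 fold change -0.26 ± 0.06, adjusted p = 0.0148) of 11, with a median of 0.01. That count became 0 higher and 1 lower without Esrrb replicate 1 and 1 higher and 1 lower without Esrrb replicate 2 or Esrrb+Nanog replicates 1 or 3. With Esrrb replicate 3 left out, the count was 1 higher and 0 lower. It was 0 higher and 0 lower without Esrrb+Nanog replicate 2. Hippo and TEAD genes gave 0 higher and 2 lower (Lats2 and Tead1) of 14 (0 and 1 with library totals), with a median near 0, or 0.06 with library totals. Leave-one-out fits changed the count to 0 higher and 1 lower without Nanog-null replicates 2 or 3, Esrrb replicates 1 or 3 or Esrrb+Nanog replicate 3 and 0 higher and 0 lower without Esrrb+Nanog replicate 2. Immediate-early genes gave 0 calls among 15 by edgeR, 2 higher with library totals, 4 higher without a low-count filter and 4 higher by DESeq2, 5 had an unadjusted p below 0.05, and the median was 0.20. Egr1 was at 26.9, 27.9 and 23.8 CPM and 44.2, 51.1 and 30.2 CPM, apart but not called (log2 fold change 0.67 ± 0.21, adjusted p = 0.0537). The list's count became 2 higher and 0 lower without Nanog-null replicate 1 or Esrrb replicate 2 and 3 higher and 0 lower without Nanog-null replicate 2. A fit without Esrrb+Nanog replicate 3 gave 1 higher and 0 lower.

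Markers of other cell types were counted because the cultures or the sort could hold such cells. Of 19 primitive endoderm genes, 1 was higher and 5 lower (1 and 10 without a low-count filter), with a median of -0.73. Lama1, a laminin chain gene, was at 103, 183 and 123 CPM in the Esrrb line and 334, 329.8 and 404 CPM in the Esrrb+Nanog line (log2 fold change 1.39 ± 0.25, adjusted p = 0.00466). Fgfr2, Gata6, Pdgfra, Dab2 (4.73 ± 1.6 to 2.02 ± 0.28 CPM, adjusted p = 0.0401) and Cubn (2.86 ± 1.8 to 0.373 ± 0.2 CPM, adjusted p = 0.0255) fell. The summed level of the 20 autosomal members was 1159, 1344 and 1343 CPM in the Esrrb line and 1295, 1262 and 1541 CPM in the Esrrb+Nanog line, and 3 members were under 1 CPM in these libraries. The number of calls became 1 higher and 9 lower without Nanog-null replicate 2 and 1 higher and 3 lower without Nanog-null replicate 3. Without Esrrb replicates 2 or 3 or Esrrb+Nanog replicate 2 it was 1 higher and 2 lower. Leaving out Esrrb+Nanog replicates 1 or 3 gave 1 higher and 1 lower.

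Trophoblast markers gave 2 higher (Tfap2a and Ascl2) and 1 lower (Gata3) of 15 (4 and 1 without a low-count filter), with a median of 0.21 and summed levels of 133.4, 141 and 110.3 CPM against 163.7, 167.9 and 142 CPM, and 4 of 16 members under 1 CPM. Ascl2, a basic helix-loop-helix factor, rose from 2.59 ± 0.81 to 5.35 ± 0.84 CPM (log2 fold change 1.06 ± 0.22, adjusted p = 0.00855). Gata3 was at 1.94 ± 0.55 and 0.878 ± 0.21 CPM (log2 fold change -1.13 ± 0.32, adjusted p = 0.0411). Leave-one-out fits changed the count to 2 higher and 0 lower without Nanog-null replicate 3, Esrrb replicate 3 or Esrrb+Nanog replicates 1, 2 or 3 and 3 higher and 0 lower without Esrrb replicate 2. Of 6 tested streak and mesoderm genes 0 were called by edgeR and 0 by DESeq2, 1 had an unadjusted p below 0.05, the median was 0.03, and 10 of 13 members were under 1 CPM. Their summed level was 27.06, 37.89 and 20.78 CPM against 23.26, 36.2 and 31.12 CPM. Neuroectoderm genes gave 2 higher (Pax6 and Sox1) and 1 lower (Hes3) of 8 (4 and 2 without a low-count filter), with a median of 0.26. Their summed levels were 131.7, 133.4 and 116.8 CPM against 122.4, 145.6 and 169.4 CPM, and 6 of 13 members were under 1 CPM. Pax6 was at 3.42, 3.81 and 5.34 CPM and 7.05, 6.11 and 7.53 CPM (log2 fold change 0.73 ± 0.17, adjusted p = 0.0162). The list's count became 0 higher and 1 lower without Esrrb replicate 1 or Esrrb+Nanog replicate 3 and 3 higher and 2 lower without Esrrb replicate 2. With Esrrb replicate 3 or Esrrb+Nanog replicate 2 left out, the count was 1 higher and 1 lower. Fibroblast and feeder genes gave 0 higher and 1 lower (Fn1) of 9 with a median of 0.14. Postn and S100a4 had no reads in any of the 6 libraries, and 9 of 14 members were under 1 CPM. The summed level includes Fn1, which is among the called lower genes with the most reads, and was 1976, 1981 and 1817 CPM against 1691, 1539 and 1617 CPM. That count became 1 higher and 1 lower without Nanog-null replicate 2 and 0 higher and 0 lower without Esrrb replicate 1 or Esrrb+Nanog replicates 2 or 3. The part of other cells in the changes above was not tested.

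Families were also collected by gene symbol, after values had been seen. The 80 cytosolic ribosomal protein genes gave 0 higher and 18 lower with a median of -0.15, and Rps3 went from 1564 ± 76 to 1375 ± 24 CPM (log2 fold change -0.19 ± 0.06, adjusted p = 0.0451), a call lost with library totals. Their share of counts was 4.8%, 4.47% and 4.78% over the Esrrb libraries and 4.44%, 4.4% and 4.41% over the Esrrb+Nanog libraries. Many have processed copies elsewhere in the genome that could take up reads. The count of lower genes was 4 with library totals. The 2 counts became 0 higher and 10 lower without Nanog-null replicate 1 and 0 higher and 8 lower without Nanog-null replicate 2 or Esrrb+Nanog replicate 3. It was 0 higher and 4 lower without Nanog-null replicate 3. A fit without Esrrb replicate 1 or Esrrb+Nanog replicate 2 gave 0 higher and 2 lower. Without Esrrb replicate 2 it was 0 higher and 32 lower. Leaving out Esrrb replicate 3 gave 0 higher and 3 lower. With Esrrb+Nanog replicate 1 left out, the count was 0 higher and 5 lower. The paralog Rpl39l fell from 68.8, 70 and 75.3 CPM to 21.3, 37.5 and 45.5 CPM (log2 fold change -1.04 ± 0.19, adjusted p = 0.00522). Rpl10l went from 47.9 ± 1.9 to 31.6 ± 5.3 CPM (log2 fold change -0.60 ± 0.11, adjusted p = 0.00579). Of 77 mitochondrial ribosomal protein genes, 0 were higher and 1 lower (Mrpl16, -0.45, adjusted p = 0.00278), and their median of -0.03 turned to 0.03 with library totals.

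Pluripotency-associated transcripts (Platr), a name given to long non-coding RNAs for their expression in embryonic stem cells, gave 0 higher and 8 lower of 22 (1 and 9 without a low-count filter) with a median of -0.42. Platr7 was at 22.2, 16.7 and 30.4 CPM in the Esrrb line and 7.57, 9.61 and 10.6 CPM in the Esrrb+Nanog line (log2 fold change -1.32 ± 0.20, adjusted p = 0.00131). Platr17, which the annotation lists as protein coding, was at 19, 16.5 and 16.6 CPM and 7.2, 10.1 and 9.84 CPM (log2 fold change -0.94 ± 0.13, adjusted p = 0.000803). Without a stated strand of counting, such RNAs and the genes they overlap cannot be told apart. Ephrins and Eph receptors gave 0 higher and 4 lower of 18, with a median of -0.04, or 0.02 with library totals. Epha2, a receptor kinase, fell from 348 ± 17 to 252 ± 17 CPM (log2 fold change -0.46 ± 0.07, adjusted p = 0.00104). Ephb6 went from 8.27 ± 1.3 to 4.19 ± 0.59 CPM (log2 fold change -0.98 ± 0.15, adjusted p = 0.00182).

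Solute carriers gave 27 higher and 19 lower of 249 (40 and 14 with library totals or 36 and 34 without a low-count filter), or 10.8% and 7.63% beside 5.55% and 7.48% over all genes, with a median of 0.08. The nucleoside transporter gene Slc29a3 was at 22.6, 23.3 and 20.2 CPM in the Esrrb line and 72.2, 75 and 78.3 CPM in the Esrrb+Nanog line, with little spread (log2 fold change 1.77 ± 0.09, adjusted p = 5.23e-07). The iron exporter gene Slc40a1 fell from 3.45 ± 0.49 to 1.33 ± 0.096 CPM (log2 fold change -1.37 ± 0.15, adjusted p = 0.000199). The solute carrier count became 13 higher and 11 lower without Esrrb replicate 1 and 17 higher and 16 lower without Esrrb replicate 3. It was 12 higher and 12 lower without Esrrb+Nanog replicate 2. Zinc finger genes named Zfp gave 11 higher and 18 lower of 357, or 3.08% and 5.04% beside the same 5.55% and 7.48%, with a median of 0.02. The count was 27 and 13 with library totals and 17 and 33 without a low-count filter. Zfp819 fell from 17.2 ± 2.3 to 8.29 ± 0.8 CPM (log2 fold change -1.05 ± 0.12, adjusted p = 0.000254). The number of calls became 5 higher and 7 lower without Esrrb replicate 1 or Esrrb+Nanog replicate 2 and 6 higher and 8 lower without Esrrb replicate 3. A fit without Esrrb+Nanog replicate 3 gave 7 higher and 17 lower.

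Runs of at least 4 consecutive tested genes called in the same direction were found at 13 places, 8 of them higher and 5 lower. The longest by number of genes was on chromosome 7, from 140954837 to 141100572 (146 kb), where 6 genes were higher. It holds Ifitm2, Ifitm1 and Ifitm3, small antiviral membrane proteins of close sequence, which rose from 32.6 ± 4.6 to 57.1 ± 8, 45.2 ± 6.2 to 77 ± 15 and 19.2 ± 0.22 to 28.8 ± 4.2 CPM. B4galnt4, a glycosyltransferase gene beside them, was at 26.4, 32 and 17.5 CPM in the Esrrb line and 70.1, 91.3 and 90.9 CPM in the Esrrb+Nanog line (log2 fold change 1.73 ± 0.18, adjusted p = 0.000159). The desmosome gene Pkp3 and the immune receptor gene Sigirr rose by 1.05 and 0.54 on the log2 scale. For Ifitm1 and Ifitm3 the Nanog-null means, 92.9 and 32.2 CPM, were above those of both other lines.

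On chromosome 1, Rbbp5, a core subunit of histone H3 lysine 4 methyltransferases, rose from 57.2, 60.8 and 60.9 CPM to 91.8, 108 and 108 CPM (log2 fold change 0.78 ± 0.07, adjusted p = 6.44e-05) at one end of a run of 5 genes over 463 kb that also holds Cntn2 and Nfasc. On chromosome 10, 97 kb held Pfkl, Aire, Dnmt3l and Icosl, all lower. Aire, an autoimmune regulator known from the thymus, fell from 89.4 ± 9.5 to 62.4 ± 6 CPM (log2 fold change -0.52 ± 0.09, adjusted p = 0.00304) and Icosl, a costimulatory ligand, from 62.9 ± 8.3 to 40.3 ± 0.7 CPM (log2 fold change -0.64 ± 0.11, adjusted p = 0.00245). On chromosome 8, 138 kb held 5 lower genes, among them the beta-adrenergic receptor gene Adrb3, at 46.1, 51 and 47.9 CPM and 18.8, 23.7 and 24.3 CPM (log2 fold change -1.12 ± 0.10, adjusted p = 5.29e-05). Those 5 include Gm45470, an antisense transcript that lies within Adrb3 (log2 fold change -1.23 ± 0.18, adjusted p = 0.00137). Without a stated strand of counting, Gm45470 and Adrb3 cannot be told apart, nor can reads where Aire and Dnmt3l overlap. The translation inhibitor gene Eif4ebp1 was at 364 ± 27 and 292 ± 4.9 CPM (log2 fold change -0.32 ± 0.06, adjusted p = 0.00614). The number of such runs was not compared with other placements of the calls.

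**Figure D5:**
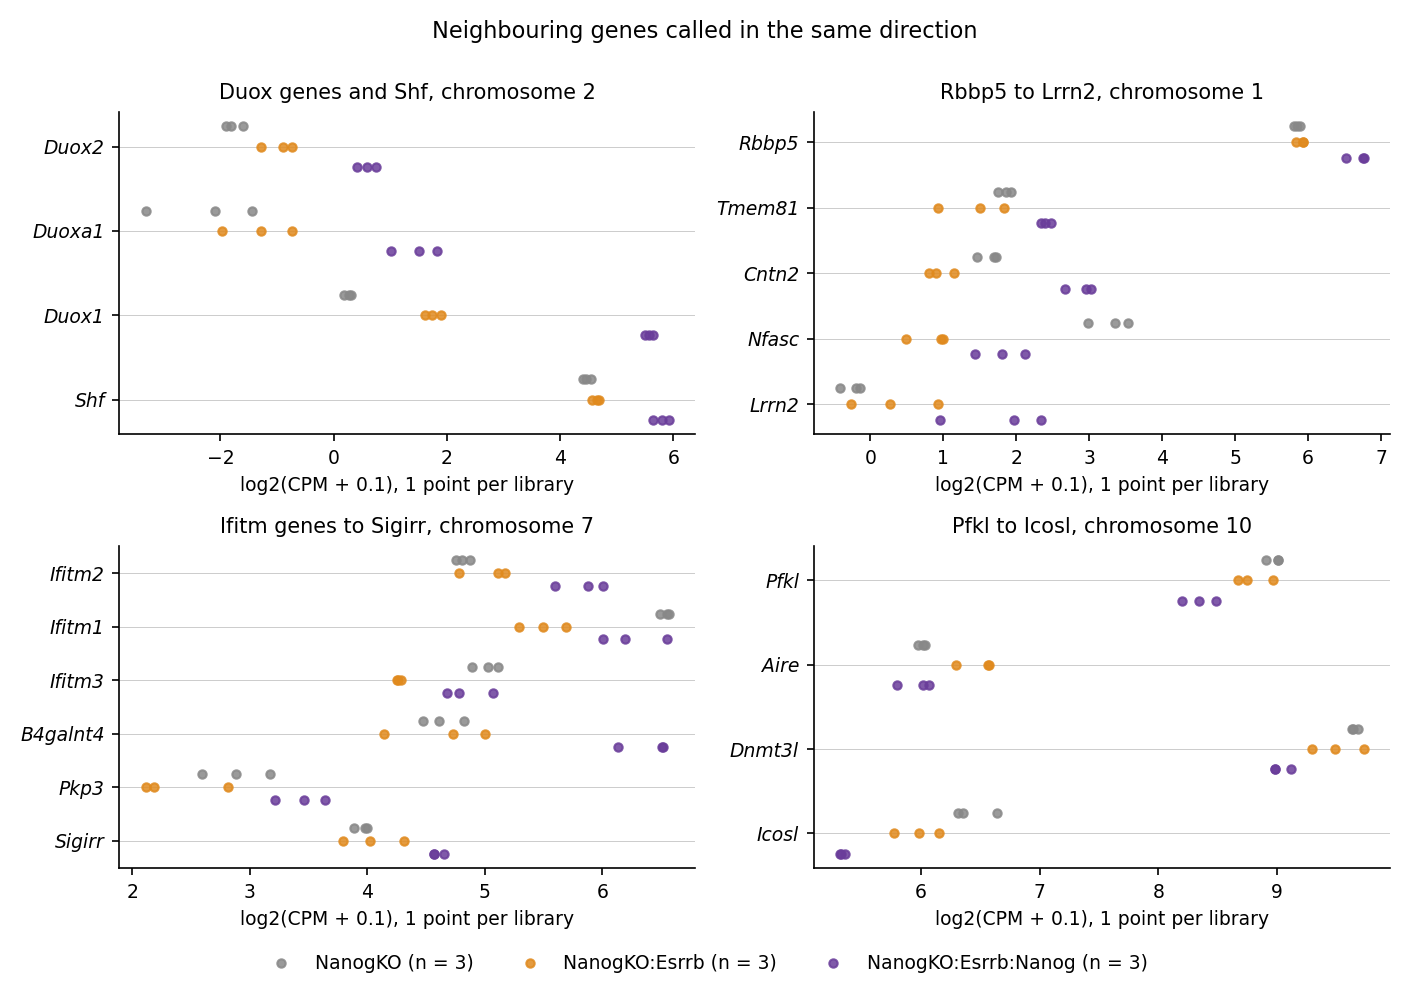
Panels show 4 groups of consecutive tested genes called in the same direction, in genome order, and each point is 1 library on a scale of log2(CPM + 0.1), grey for the Nanog-null line, orange for the Esrrb line and purple for the Esrrb+Nanog line. Purple points lie above orange ones for every gene of the Duox and Ifitm groups and from Rbbp5 to Lrrn2, and below them for every gene from Pfkl to Icosl, with the widest gap at Duox1, 3.86 on the log2 scale.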

How the data were processed

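The authors deposited a table of raw counts per gene for the whole series, per the file headers and values. Of its columns, 9 match sample titles and were used, and 6 match no title and were not used here. The submitters' processing notes name bcl2fastq 2.19.1, STAR 2.5.3a and the build mm10, with no role stated, and sources used here do not give the counting settings or strand. Symbols and positions came from GENCODE M21, which held 52489 of 52636 IDs.

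Counts of all 9 libraries were filtered with filterByExpr, scaled by trimmed means and fitted in R 4.3.3 with edgeR 4.0.16 (quasi-likelihood test, 1 term per line), with Benjamini-Hochberg adjustment over all tested genes and calls at 0.05. Fits across all 9 libraries share 1 estimate of spread. CPM values use the same scaling. Alternatives were DESeq2 1.42.0, median-of-ratios or library-total scaling, other filters, a test against a fold change of 1.5, a fit of the 2 lines alone, a replicate block, and leaving out each library. The procedure was tested on simulated data. Precision is limited by 3 libraries per line, and depth by the library totals in the report.

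Genes named are the 20 largest called changes per direction with at least 5 CPM in the higher line and no overlap between lines (predicted genes left out), the 10 called genes with the most reads per direction, 3 per list, and Nanog, Esrrb, Pecam1 and Pdgfra. Members and lists were chosen with earlier results of these data known, and 577 of 579 list entries matched a gene. Other genes named among lists, the families by symbol and the runs of at least 4 neighbours were chosen after their values were seen. Promoter sequences are the 250 bases before RefSeq gene starts. Genes outside the autosomes were not described. Some genes are not reported here.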

Additional observations from a re-analysis of the deposited data

How the results depend on the processing

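No autosomal gene called in the main comparison was called in the opposite direction by any alternative run. Calls numbered 865 higher and 1165 lower in the main comparison, 990 and 1338 with DESeq2, 857 and 1152 with median-of-ratios scaling, 1206 and 1590 without a filter, and 712 and 896 with the 2 lines alone. A test against a fold change of 1.5 left 97 higher and 119 lower, with 95 and 113 over 2-fold, and a filter at 5 CPM left 85 and 119 over 2-fold, against 231 and 314. Library totals gave 1360 higher. Leaving out 1 library gave 388 to 938 higher and 647 to 1321 lower, and 171 to 287 and 226 to 375 over 2-fold. Kdr, not called (-0.14), changed sign without Esrrb replicate 2 (0.19) and without Esrrb+Nanog replicate 1 (0.11), over a range from -0.38 to 0.19 without single libraries, and the cause was not tested. The 3 same-numbered library pairs of the Esrrb and Esrrb+Nanog lines correlated at 0.158, 0.278 and -0.0248 in their deviations. Differently numbered pairs ranged from -0.329 to 0.224, which does not settle whether the numbers pair the samples. A replicate block gave 974 higher and 1288 lower, with 244 and 330 over 2-fold, and called Pecam1 lower (adjusted p = 0.0322). Of 117 called genes named by the rule, 45 kept their call in all 17 alternatives, and Minar1, Myo1f and Pvalb in the 16 that tested them. Depth limits genes under about 1 CPM, where few reads carry each value.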

Other observations

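Some further families and genes were collected by symbol or rank after values had been seen. Semaphorins and plexins, guidance ligands and their receptors, gave 3 higher and 5 lower of 26 (6 and 3 with library totals) with a median log2 fold change of 0.05. Sema6a fell from 8.29, 5 and 6.72 CPM in the Esrrb line to 3.1, 1.61 and 1.23 CPM in the Esrrb+Nanog line (log2 fold change -1.75 ± 0.31, adjusted p = 0.0035 by edgeR), opposite in direction to Sema5b. The semaphorin count became 1 higher and 1 lower without Esrrb replicate 1 and 3 higher and 3 lower without Esrrb replicate 3. Without Esrrb+Nanog replicate 2 it was 3 higher and 1 lower. Leaving out Esrrb+Nanog replicate 3 gave 2 higher and 2 lower. Integrin chains gave 2 higher and 4 lower of 21, and their median of -0.04 changed sign with library totals, with Itga9 and Itgb3 higher. The integrin count became 2 higher and 2 lower without Esrrb replicate 1 or Esrrb+Nanog replicates 1 or 2. Genes with Eif symbols, translation initiation factors and some of their regulators such as the inhibitor Eif4ebp1, gave 2 higher and 6 lower of 51, with a median of -0.05 that also changed sign with library totals, and the count became 2 higher and 3 lower without Nanog-null replicate 3 and 0 higher and 2 lower without Esrrb replicate 1. With Esrrb replicate 2 or Esrrb+Nanog replicates 1 or 2 left out, the count was 1 higher and 3 lower. It was 1 higher and 4 lower without Esrrb replicate 3. Of 47 genes with Psm symbols, proteasome subunits and some associated factors, 1 was lower (Psma8, log2 fold change -0.62, adjusted p = 0.00765).

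Among the lower genes with a large change, Dpp4, a cell-surface peptidase, fell from 45.4 ± 5.9 to 13.3 ± 2.1 CPM (log2 fold change -1.77 ± 0.14, adjusted p = 1.89e-05 by edgeR), Prickle1, a planar polarity protein, from 11.8 ± 2 to 3.73 ± 1.1 CPM (log2 fold change -1.66 ± 0.21, adjusted p = 0.000457), and the muscle myosin-binding gene Mybpc2 from 5.84 ± 1.1 to 1.82 ± 0.6 CPM (log2 fold change -1.67 ± 0.23, adjusted p = 0.000815). Their Nanog-null means were 28.7, 11.6 and 7.45 CPM. Among transcripts with almost no reads in 1 line, Il9r, the interleukin 9 receptor gene, had 6 counts in the 3 Esrrb libraries and 108 in the 3 Esrrb+Nanog libraries, and Pdzrn4, a ubiquitin ligase gene, had 105 and 8.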
